A study of Homo sapiens with 20 samples.

Results

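CXCL1, CXCL2, CXCL3, CXCL5, CXCL6 and CXCL8 are the secreted chemokines that call neutrophils through the receptor CXCR2. They were taken by gene symbol from the deposited gene count table, where all 6 were present among 54261 features, and 5 of the 6 passed the filter on low counts. RNA-seq was done on total RNA of TPC-1 cells, an established papillary thyroid carcinoma line with a CCDC6-RET fusion. In 6 coculture libraries the cells had been kept for 48 h with PMN-MDSCs (polymorphonuclear myeloid-derived suppressor cells), myeloid cells close to neutrophils that dampen T cell responses, and in 4 control libraries they had been kept without them. The labels give this line for all 10 libraries and name no other genotype or agent. The coculture libraries also held message of leukocyte genes, described below. Whether their RNA came from TPC-1 cells alone was not tested. The labels do not say whether the cells touched, where the PMN-MDSCs came from, whether they were taken away before lysis, or whether libraries of a group were grown separately. The p-values therefore reflect the variation among these libraries, and this variation may be technical.

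These chemokines carry the residues glutamate, leucine and arginine ahead of their CXC cysteine pair, the feature by which CXCR2 recognises them. Epithelial, stromal and myeloid cells make them when interleukin 1, TNF, interleukin 17 or bacterial products switch on NF-kB, a transcription factor family that binds their promoters. Their transcripts are short-lived, and RNA-binding proteins such as ZFP36 and the RNase ZC3H12A hasten their decay. In papillary thyroid carcinoma, CXCL8 is a known product of the tumor cells.

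The genes lie together on chromosome 4. In the deposited table, on build GRCh38.p10, CXCL8 was at chr4:73740506-73743716, CXCL6 at chr4:73836556-73838760 and CXCL1 at chr4:73869392-73871302, all on the plus strand. CXCL5 was at chr4:73995642-73998729, CXCL3 at chr4:74036589-74038773 and CXCL2 at chr4:74097035-74099280, all on the minus strand. The bases just ahead of each gene are shown because they hold a match that all 6 genes share. They run 5′ to 3′ on the strand of the gene and end at the base before the start in RefSeq (build GRCh38.p14). Capitals mark matches to the motifs named next.
CXCL1: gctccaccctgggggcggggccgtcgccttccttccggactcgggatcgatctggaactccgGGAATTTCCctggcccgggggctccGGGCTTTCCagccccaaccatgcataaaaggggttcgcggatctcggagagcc
CXCL2: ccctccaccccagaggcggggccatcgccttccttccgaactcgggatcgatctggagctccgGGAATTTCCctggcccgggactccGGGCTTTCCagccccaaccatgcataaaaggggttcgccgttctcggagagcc
CXCL3: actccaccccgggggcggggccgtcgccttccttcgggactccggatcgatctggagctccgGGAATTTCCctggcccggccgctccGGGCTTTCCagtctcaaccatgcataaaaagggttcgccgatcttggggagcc
CXCL5: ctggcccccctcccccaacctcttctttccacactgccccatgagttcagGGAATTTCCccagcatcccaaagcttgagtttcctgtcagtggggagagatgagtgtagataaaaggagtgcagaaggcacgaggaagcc
CXCL6: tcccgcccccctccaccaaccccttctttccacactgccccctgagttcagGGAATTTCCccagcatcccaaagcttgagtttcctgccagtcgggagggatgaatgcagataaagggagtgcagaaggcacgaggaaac
CXCL8: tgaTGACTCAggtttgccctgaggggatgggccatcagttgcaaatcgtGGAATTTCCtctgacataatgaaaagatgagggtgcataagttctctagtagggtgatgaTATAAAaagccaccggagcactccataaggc
The printed stretches, of 140 bases each, are chr4:73869253-73869392 for CXCL1, chr4:74099196-74099335 for CXCL2 and chr4:74038690-74038829 for CXCL3. They are chr4:73998678-73998817 for CXCL5, chr4:73836538-73836677 for CXCL6 and chr4:73740429-73740568 for CXCL8. The deposited table places the first base of each gene farther upstream than RefSeq does, by 1 base for CXCL1, 52 for CXCL5, 63 for CXCL8, 84 for CXCL3, 85 for CXCL2 and 122 for CXCL6.

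Both strands of each RefSeq window, from 250 bases before the start to 50 after it, were searched for exact matches, and the matches in these 6 genes all lay before the start. GGAATTTCC, an NF-kB site, occurred in 6 of the 6 genes, against 162 of 35116 RefSeq promoters (0.461%). Its first base lay 78 bases before the start in CXCL1, 77 in CXCL2 and 78 in CXCL3, and 90 in CXCL5, 89 in CXCL6 and 91 in CXCL8. The broader NF-kB pattern GGNNNTTCC, which includes that site and occurred in 20.1% of promoters, had another match at 53 bases in CXCL1, CXCL2 and CXCL3, and in none of the other 3. CXCL8 alone of the 6 had exact matches to TGANTCA, the AP-1 site, at 137 bases (7.71% of promoters) and TATAAA, the TATA box, at 31 bases (11.5%). CXCL2 alone had an exact match to TTGCNNAA, a C/EBP site, at 188 bases on the opposite strand (10.5%), outside the printed stretch. Looser forms of these 3 motifs were not searched, so a gene without an exact match may still hold such a site. A match describes the letters and does not show binding. The motifs were chosen with earlier results of these data known. Some of the 6 upstream sequences are also much alike, so their 6 matches to GGAATTTCC are not separate observations.

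**Figure D1:**
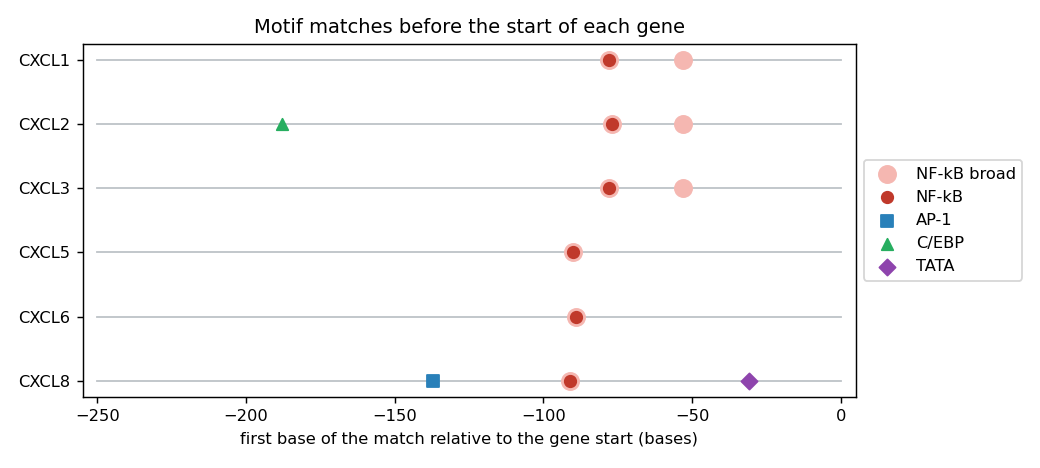
Motif matches in the 250 bases before the start of each CXCR2 ligand gene. The horizontal axis is the position of the first base of a match relative to the RefSeq start, and each row is a gene. Dark red points, for GGAATTTCC, lie 77 to 91 bases before the start in all 6 rows, and only CXCL1, CXCL2 and CXCL3 have the further pale point at 53 bases.

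The upstream sequences fell into 3 kinds by identity over aligned columns. CXCL5 and CXCL6 were 85.3% identical, CXCL1 and CXCL3 81.4%, CXCL2 and CXCL3 73.4%, and CXCL1 and CXCL2 70.1%. CXCL8 stood apart, at 43.9% to 47.9% identity with the other 5. CXCL1, CXCL2 and CXCL3 are also near copies in their transcripts, so the way reads were divided among these 3 by the authors' counting, which is not given in the sources used here, is uncertain.

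Library totals ran from 40237801 to 48197608 counts. Levels are in counts scaled to a common library size (CPM) by the TMM method, and a floor of 3 counts per library came to 0.0632 to 0.0758 CPM. On the first principal component, with 39.3% of the variance, coculture 1 (-66.1) and coculture 2 (-60.6) stood apart from the remaining 8 libraries, which ran from 0.908 to 31.8. The tests were therefore repeated without coculture 1 and 2, and with those libraries alone against the controls, both chosen after seeing the data. In the fit over 15629 genes, 178 were higher in coculture at an edgeR adjusted p under 0.05 (1.14%) and 29 lower (0.186%), with a median log2 fold change over all tested genes of 0.00818. Every coculture library lay above every control for 383 of the genes, or 2.45%.

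Coculture against control asked whether TPC-1 cultures held more message for neutrophil attractants after 48 h with PMN-MDSCs. CXCL1, CXCL2, CXCL3, CXCL5 and CXCL8 rose, and in each of these 5 every coculture library lay above every control. The rises were 4.94-fold for CXCL1, 6.20-fold for CXCL3, 8.39-fold for CXCL2 and 14.8-fold for CXCL8, while CXCL5 went from 1 count over the 4 controls to 1147 over the 6 coculture libraries. CXCL6 was almost absent from all 10 libraries. Among the 15629 genes ordered by log2 fold change, CXCL8 ranked 71, CXCL2 87, CXCL3 106 and CXCL1 125.

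CXCL8, or interleukin 8, binds both CXCR1 and CXCR2 and is the best known neutrophil attractant of the family. Its control libraries held 22.1, 20.9, 19.8 and 18.7 CPM, and its coculture libraries ran from 185 through a median of 214 to 660 CPM. The controls were close together and the coculture values were spread widely, with no overlap. The mean was 302 ± 185 CPM (SD, n = 6) in coculture and 20.4 ± 1.49 (n = 4) in controls, a log2 fold change of 3.89 ± 0.39 (SE, edgeR adjusted p = 0.000311). Without coculture 1 and 2 it was 4.09 (edgeR adjusted p = 0.00675), and without coculture 4 it was 3.50 (edgeR adjusted p = 5.84e-06).

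CXCL1, first known as a melanoma growth factor, acts mainly through CXCR2 and was the ligand with the most message in control cells. It stood at 35.0, 47.1, 65.1 and 63.4 CPM in the controls and ran from 150 through a median of 238 to 439 CPM in coculture. The lowest coculture library lay well above the highest control. Its log2 fold change was 2.30 ± 0.31 (SE, edgeR adjusted p = 0.00159), from a control mean of 52.6 ± 14.3 CPM (SD, n = 4) to 260 ± 107 (n = 6). Without coculture 1 and 2 the log2 fold change was 2.47 (edgeR adjusted p = 0.0114).

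CXCL2, a close relative of CXCL1 that macrophages and epithelium release early in inflammation, held 4.19, 2.97, 6.67 and 6.05 CPM in the controls. In coculture it ran from 25.6 through a median of 27.9 to 101 CPM. Of its 6 coculture libraries, 4 lay between 25.6 and 28.3 CPM and coculture 4 stood far above them. The log2 fold change was 3.07 ± 0.45 (SE, edgeR adjusted p = 0.00354). Without coculture 4 it was 2.59 (edgeR adjusted p = 0.000326), and without coculture 1 and 2 it was 3.29 (edgeR adjusted p = 0.0297).

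CXCL3, the third of the close relatives, was at 0.919, 1.53, 1.43 and 1.54 CPM in the controls and ran from 3.22 through a median of 6.82 to 19.2 CPM in coculture. The groups did not overlap, and coculture 1 and 2 were its lowest treated libraries. Its log2 fold change was 2.63 ± 0.49 (SE, edgeR adjusted p = 0.0175), 3.00 without coculture 1 and 2 (edgeR adjusted p = 0.00134) and 1.32 with those libraries alone (edgeR adjusted p = 0.00333). On leaving out any 1 of the 4 controls the call was lost, with an edgeR adjusted p between 0.0568 and 0.0871, and it was lost with limma-voom, at 0.103.

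CXCL5, which epithelial cells make in response to interleukin 1 and which binds CXCR2, had 0, 1, 0 and 0 counts in the controls. In coculture it ran from 0.905 through a median of 2.78 to 9.63 CPM. Coculture 3 and 6, at 9.25 and 9.63 CPM, stood apart from the other 4, which ran from 0.905 to 2.95 CPM. The ratio of coculture to control CPM was 773, with an exact 95% counting interval from 139 to 30575 that covers counting error only and not the spread between libraries. The edgeR adjusted p was 0.00129, and 0.000397 without coculture 1 and 2. CXCL5 passed the filter on low counts only through its coculture libraries.

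CXCL6, the closest relative of CXCL5 and a ligand of CXCR1 and CXCR2, gave 4 counts in coculture 6, or 0.0963 CPM, and 0 in the other 9 libraries. That is near the floor of 3 counts, so it was not tested and no difference was detectable at this depth.

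**Figure D2:**
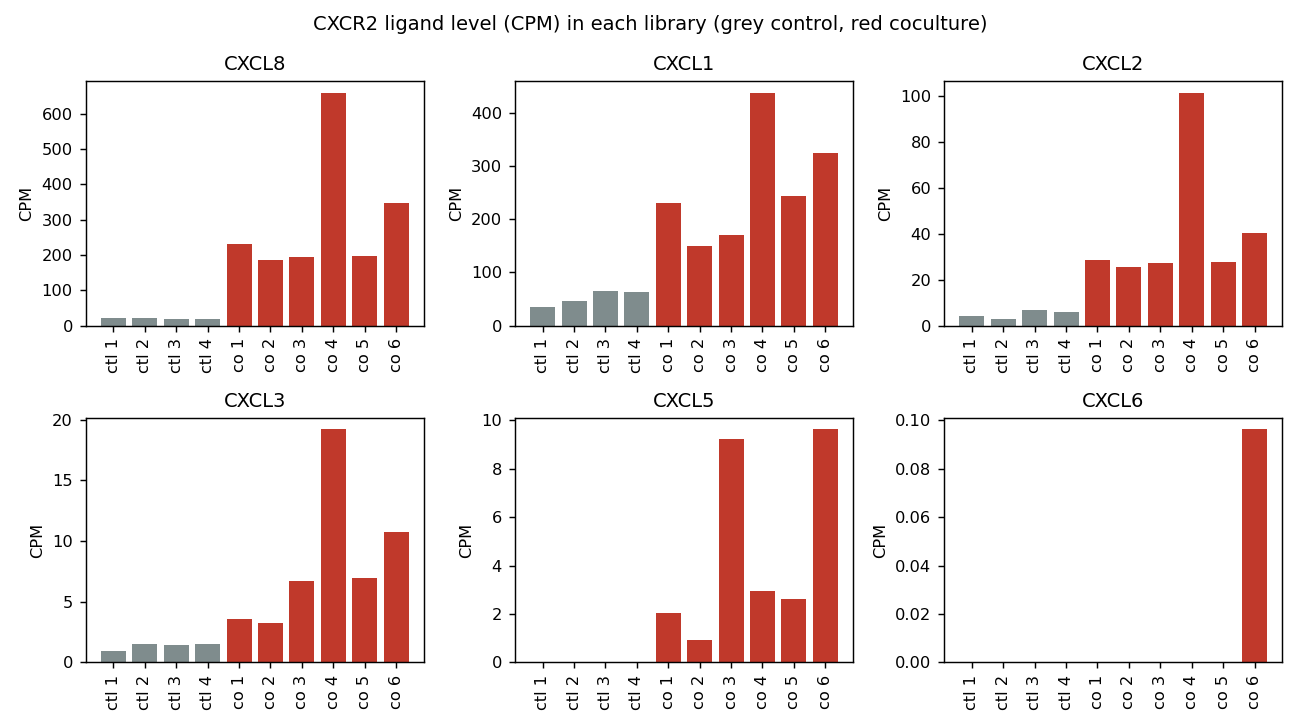
CPM (vertical axes, from 0, scaled separately for each gene) of the 6 CXCR2 ligands in each control (ctl, grey) and coculture (co, red) library. CXCL8, CXCL1, CXCL2 and CXCL3 are highest in coculture 4, CXCL5 in coculture 3 and 6, and CXCL6 has its only counts in coculture 6.

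The spread among coculture libraries followed a shared order for 4 of the ligands. Coculture 4 was the highest and coculture 6 the second highest library for CXCL1, CXCL2, CXCL3 and CXCL8, and coculture 2 was the lowest. Relative to the control mean, coculture 4 was 8.34-fold higher for CXCL1, 14.2-fold for CXCL3, 20.4-fold for CXCL2 and 32.4-fold for CXCL8. In coculture 2 the same ratios were 2.85 for CXCL1, 2.38 for CXCL3, 5.15 for CXCL2 and 9.06 for CXCL8. CXCL5 did not follow this order: coculture 4 held 2.95 CPM of it and coculture 3 held 9.25. Leaving out coculture 4 lowered the coculture mean of CXCL8 from 302 to 231 CPM, that of CXCL1 to 224, that of CXCL2 from 41.7 to 29.8 and that of CXCL3 from 8.40 to 6.24, while that of CXCL5 went from 4.56 to 4.89.

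To compare levels between genes, CPM was divided by the gene length in the deposited table. On this per-kilobase scale the control order was CXCL1 at 29.4 to 54.6, CXCL8 at 10.9 to 13.0, CXCL2 at 2.46 to 5.54 and CXCL3 at 0.793 to 1.33 CPM per kb, with no overlap between neighbours. CXCL5 and CXCL6 were below these. In coculture CXCL1 at 126 to 368 and CXCL8 at 108 to 387 CPM per kb overlapped, and CXCL8 exceeded CXCL1 in coculture 4 alone. CXCL2 followed at 21.2 to 84.1, then CXCL3 at 2.78 to 16.6 and CXCL5 at 0.364 to 3.87 CPM per kb, the last pair overlapping. Summed over the 6 genes, message per kb went from 61.4 ± 12.5 (SD, n = 4) to 439 ± 224 (n = 6).

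CXCL1 made up less of the mix of ligands in coculture, and CXCL8 more. CXCL1 made up 71.1 ± 5.72% (SD, n = 4) of the summed per-kilobase level in controls and 51.0 ± 5.34% (n = 6) in coculture. CXCL8 made up 15.5% to 27.8% in controls and 32.8% to 45.1% in coculture, with no overlap. The mean share of CXCL2 was 6.65% in controls and 7.56% in coculture, that of CXCL3 1.91% and 1.56%, and that of CXCL5 0.00447% and 0.472%.

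**Figure D3:**
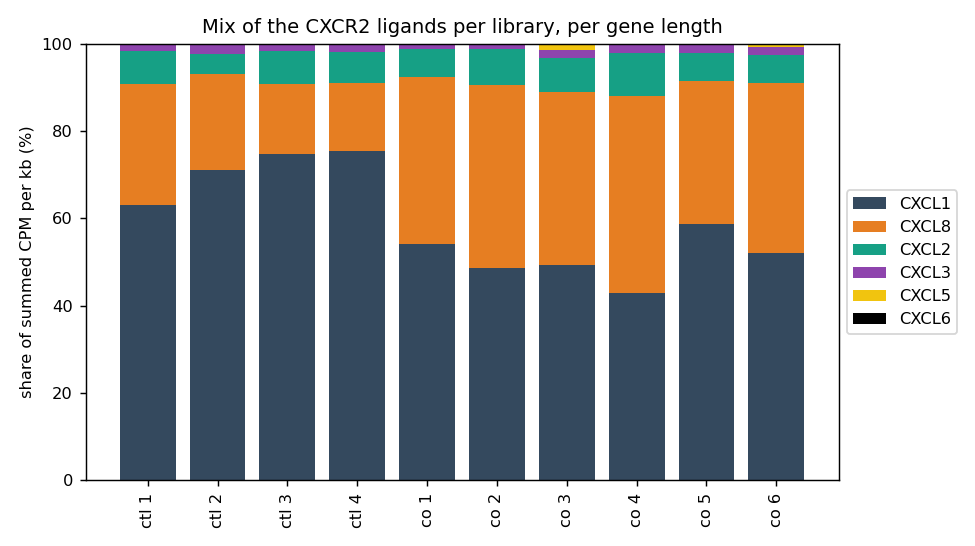
Share of each ligand in the summed CPM per kb of the 6 CXCR2 ligands (vertical axis, percent), with 1 stacked bar for each control (ctl) and coculture (co) library. The CXCL8 section covers 15.5% to 27.8% of the control bars and 32.8% to 45.1% of the coculture bars.

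Whether the ligands changed unequally was tested on the log2 ratio of counts of a pair within each library, in which depth cancels. The 6 pairs among CXCL1, CXCL2, CXCL3 and CXCL8, the genes with at least 10 counts in every library, were compared by an exact two-sided permutation test, whose smallest possible p is 0.00952. CXCL8 over CXCL1 was 1.47 higher in coculture on the log2 scale, with 6 of 6 coculture libraries above every control (exact p = 0.00952, adjusted over the 6 pairs 0.0286). CXCL8 over CXCL3 was 1.34 higher, also in 6 of 6 libraries (exact p = 0.00952, adjusted 0.0286). CXCL8 over CXCL2 was 0.79 higher and CXCL2 over CXCL1 0.68 higher, each with 5 of 6 coculture libraries above every control (exact p = 0.0190, adjusted 0.0286 for both).

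No difference in change was shown for CXCL3 against CXCL1, at 0.14 (exact p = 0.667), or for CXCL3 against CXCL2, at -0.55 (exact p = 0.210, adjusted 0.251). These p-values do not show that CXCL3 changed alike with either. On leaving out control 3 or control 4 all 4 of the pairs that passed had an adjusted exact p of 0.0714, as did CXCL8 over CXCL2 without control 1 and CXCL2 over CXCL1 without control 2. Control 1 had the highest and control 4 the lowest CXCL8 to CXCL1 ratio of the controls, at 0.632 and 0.294. Without coculture 1 and 2 the 4 differences were 1.47, 1.01, 0.76 and 0.70, with an adjusted exact p of 0.0686. The difference of CXCL3 over CXCL1 was then 0.46, at the same adjusted exact p. It was -0.51 with coculture 1 and 2 alone, so its value of 0.14 averages libraries that differed in direction.

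No message of the signalling receptors was detected. CXCR1 and CXCR2 had 0 counts in all 10 libraries, which allows up to 0.0758 CPM in any library. ACKR1, a decoy receptor that binds these chemokines without signalling, had 1 count in coculture and 4 in controls. CXCR1 and CXCR2 are also defining genes of neutrophils.

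Of the 12 other chemokines of the CXC and CX3C families in the table, 2 were tested and 0 were called. CXCL16, a scavenger-receptor chemokine for T cells, was at 5.01 ± 2.39 CPM (SD, n = 6) in coculture and 2.31 ± 0.791 (n = 4) in controls (edgeR adjusted p = 0.247, and 0.0469 with DESeq2). CX3CL1, the membrane-bound fractalkine, had a log2 fold change of 0.04 ± 0.63 (SE). It was 1.20 with coculture 1 and 2 alone (edgeR adjusted p = 0.00543) and -1.39 without them (edgeR adjusted p = 0.0310). PPBP, a platelet and monocyte CXCR2 ligand between CXCL1 and CXCL5 on the chromosome, had 62 counts in coculture and 0 in controls, at least 3.57-fold higher against the floor of 3 counts per library. It failed the count filter and was highest in coculture 3, at 0.620 CPM. The platelet chemokine PF4 beside it had 0 counts in all libraries.

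Of the cytokines that induce these chemokines and their receptor pathway, 18 of 22 genes were tested, 2 were higher and 0 lower, with a median log2 fold change of 0.00717. Both that rose were interleukin 1 genes, the only tested members with a control mean under 1 CPM. These genes passed the count filter only with their coculture libraries, so their number supports nothing about the list. IL1B was at 0.385, 0.717, 0.194 and 0.113 CPM in controls and ran from 10.3 through a median of 20.5 to 34.4 CPM in coculture, a log2 fold change of 5.96 ± 0.52 (SE, edgeR adjusted p = 0.000103). IL1A rose by 2.85 ± 0.48 (SE, edgeR adjusted p = 0.00885, and 0.0513 without control 4). TNF, IL17A and IL17F had 0 counts in all libraries. TLR4, the endotoxin receptor, was at 13.6 ± 1.25 CPM (SD, n = 6) against 18.4 ± 2.81 (n = 4) and was not called by edgeR (adjusted p = 0.143), although every coculture library lay below every control and DESeq2 called it lower (adjusted p = 0.0200). IL1RAP, the co-receptor of interleukin 1, was at 12.04 ± 0.982 against 9.37 ± 1.75 (edgeR adjusted p = 0.350).

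Among 16 transcription factors known at these promoters, all tested, 3 were higher and 0 lower, with a median log2 fold change of 0.46. Over all tested genes 1.14% were higher, with a median of 0.00818. This list and those that follow were chosen with earlier results known, so their counts are description only. RELB and NFKB2, the partners of the noncanonical NF-kB pathway, rose by 1.19 ± 0.10 and 1.004 ± 0.16 (SE, edgeR adjusted p = 8.44e-05 and 0.00548). NFKBIZ, a nuclear cofactor of NF-kB, rose from 22.3 ± 2.76 CPM (SD, n = 4) to 79.2 ± 43.1 (n = 6) with an edgeR adjusted p of 0.0152, which was 0.0511 to 0.0803 on leaving out any 1 control. NFKB1 had a log2 fold change of 0.34 and was not called (edgeR adjusted p = 0.0887). With DESeq2, 8 of the 16 were higher, against 333 of all 15629 tested genes.

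Of 8 genes that restrain NF-kB, 4 were higher and 0 lower, with a median log2 fold change of 1.13, against 1.14% higher among all tested genes. TNFAIP3, the deubiquitinase A20, rose by 2.46 ± 0.36, NFKBIA, which holds NF-kB in the cytoplasm, by 1.67 ± 0.22, and TNIP1, an A20 partner, by 1.16 ± 0.15 (log2 fold change ± SE, edgeR adjusted p = 0.00352, 0.00145 and 0.00132). NFKBIE, another inhibitor of the same family as NFKBIA, rose by 0.54 ± 0.11 (edgeR adjusted p = 0.0307), and lost that call on leaving out any 1 control (edgeR adjusted p 0.0803 to 0.116). Of 11 factors that set the stability of chemokine transcripts, 2 were higher and 0 lower, with a median log2 fold change of -0.0673, against the same 1.14%. ZC3H12A rose by 2.11 ± 0.27 and DUSP1, a phosphatase that shuts off p38 signalling, by 0.64 ± 0.11 (edgeR adjusted p = 0.00124 and 0.00918), the latter not called without control 4 (edgeR adjusted p = 0.0513). ZFP36, at 15.7 ± 2.60 CPM (SD, n = 6) against 13.2 ± 2.08 (n = 4), and the stabilising protein ELAVL1, at 197 ± 12.5 against 213 ± 8.71, were not called (edgeR adjusted p = 0.635 and 0.653).

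Some of these genes, but not all, had their highest coculture level in the same library as CXCL8. NFKBIZ was at 160 CPM in coculture 4 and at 42.7 to 85.4 in the other 5, TNFAIP3 at 43.0 against 16.6 to 28.0, and ZC3H12A at 53.3 against 20.3 to 39.1. IL1B was at 14.6 CPM in coculture 4, the second lowest of the 6, and was highest in coculture 1, as were IL1A, RELB, NFKB2 and TNIP1, while NFKBIE was highest in coculture 2. Coculture 4 thus joined high CXCL1, CXCL2, CXCL3 and CXCL8 with high NFKBIZ, TNFAIP3 and ZC3H12A and with a low value of IL1B.

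**Figure D4:**
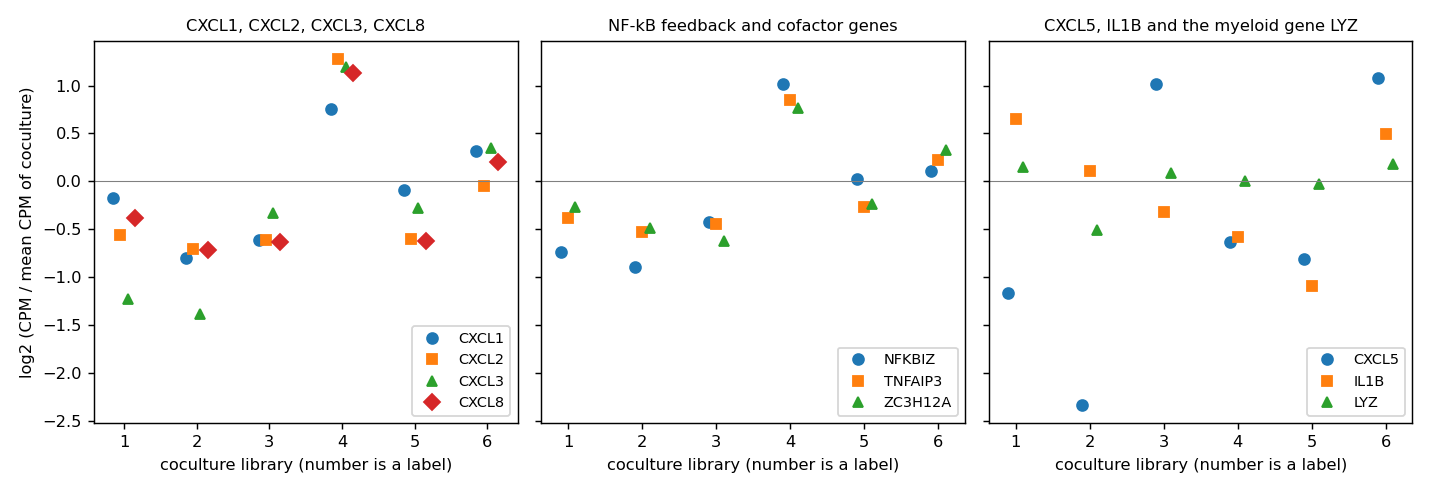
Level of each gene in each of the 6 coculture libraries relative to its mean over the 6 (vertical axis, log2 of the CPM ratio; library numbers are labels without order). In the left and middle panels coculture 4 is the highest point for all 7 genes, and in the right panel CXCL5 is highest in coculture 3 and 6, IL1B in coculture 1, and LYZ runs only from -0.51 to 0.18. The middle panel draws a selection of the called NF-kB and transcript stability genes. Of those not drawn, NFKBIA and DUSP1 were highest in coculture 4, RELB, NFKB2 and TNIP1 in coculture 1, and NFKBIE in coculture 2.

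By a rule that took the 3 genes with the smallest root mean square log2 difference over the 10 libraries, after centring on the control mean, the nearest profiles were as follows. Those nearest CXCL1 were ZC3H12A and IL6, an inflammatory cytokine, both at 0.328, and CTSH, a lysosomal protease, at 0.361. IL6 rose from 7.03 ± 2.46 CPM (SD, n = 4) to 37.0 ± 13.5 (n = 6), also with its highest value in coculture 4, at 58.2 CPM. Those nearest CXCL3 were CXCL1 at 0.420, PLA2G7, a lipase of macrophages, at 0.476 and NCF1C at 0.510. NCF1C is a near copy of NCF1, an oxidase subunit gene, so its reads are uncertain.

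The profiles nearest CXCL8 and CXCL2 were of genes with low counts. Those nearest CXCL8 were IRF8, a transcription factor of myeloid and B cells, at 0.327, MYO1G, a leukocyte myosin, at 0.333, and LGALS9 at 0.385. Those nearest CXCL2 were IL2RG, the shared cytokine receptor chain of lymphocytes, at 0.399, NCF1C at 0.411 and LGALS9 at 0.444. Those nearest CXCL5 were IL1RN, the interleukin 1 receptor antagonist, at 0.432, and CYBB, a membrane subunit of the phagocyte oxidase, at 0.787. IRF8, MYO1G, LGALS9, IL2RG, NCF1C and PLA2G7 averaged 0.288 to 0.711 CPM in coculture and had 0 or 1 count over the controls. A prior count of 2 shrinks their differences, so their nearness to CXCL8, CXCL2 and CXCL3 rests on that setting.

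Some leukocyte genes moved with the chemokines between the groups, chiefly genes that the controls hardly expressed. Of 29 neutrophil and PMN-MDSC markers, 4 were tested and 2 were higher: ITGAM, the integrin CD11b, from 0.0179 ± 0.0120 CPM (SD, n = 4) to 1.17 ± 0.470 (n = 6), and S100A9 from 0.00534 ± 0.0107 to 0.931 ± 0.521. Both passed the count filter only through their coculture libraries, with 3 and 1 counts over the 4 controls, so their number supports nothing about the list. FPR1 and FUT4, the enzyme that makes the CD15 sugar, were expressed in both groups and were not called. Summed over the whole list, the level was 11.1 to 17.2 CPM in coculture and 10.2 to 13.8 in controls, and the groups overlapped. Over the 27 members with a control mean under 1 CPM, a choice that leaves out genes expressed by the controls, it was 1.37 to 4.08 against 0.267 to 0.497. Of the list, 11 genes had 0 counts in all 10 libraries, among them ELANE, PRTN3, CTSG and MMP8 of the neutrophil granules, FCGR3B, ARG1, CXCR1 and CXCR2.

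Of 24 monocyte and macrophage markers, 7 were tested and 4 rose, all 4 from a control mean under 1 CPM: LYZ, the lysozyme, from 0.0860 ± 0.0783 CPM (SD, n = 4) to 13.9 ± 2.17 (n = 6), CD14, CSF1R and MRC1. These 4 passed the count filter only with their coculture libraries, so their number supports nothing about the list. VCAN, the most abundant member, named after its values were seen, was at 90.8 ± 22.7 CPM against 151 ± 43.0 and was not called (edgeR adjusted p = 0.169). The sum over the whole list was 180 to 284 CPM in coculture and 193 to 296 in controls, with overlap. Over the 22 members under 1 CPM in controls it was 16.5 to 26.2 against 0.726 to 1.06 CPM, of which LYZ alone gave 9.79 to 15.8 in coculture. Of 22 pan-leukocyte markers, 18 were tested, 13 rose and 5 were not called, against 1.14% higher among all tested genes. Those that rose included ITGB2, PTPN6, CD53 and TYROBP. The most abundant members, RAC2 and LAPTM5, named after their values were seen, were not called. RAC2 was at 215 CPM in coculture against 172 in controls, and LAPTM5 at 141 against 142 (edgeR adjusted p = 0.605 and 0.973). Of the 18 tested, 12 had a control mean under 1 CPM. Those with no or few control counts, such as CD53 and TYROBP with 0, could be tested only because they were present in coculture. The number that rose therefore supports nothing about the list. The sum over the whole list was 346 to 531 CPM in coculture and 310 to 362 in controls, with overlap. Over the 16 members under 1 CPM in controls it was 7.64 to 19.1 against 1.24 to 1.63. In each marker list, choosing members by a low control level keeps the control sum low. These smaller sums are therefore no test of a difference between the groups. The part of these cells in the rise of the CXCR2 ligands was not tested, and in such bulk libraries fewer cells of a type and less RNA per cell cannot be told apart.

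Within coculture, over the members under 1 CPM in controls, the monocyte sum was 20.6 CPM in coculture 4, where CXCL8 was highest, and 26.2 in coculture 6, 25.9 in coculture 1 and 22.3 in coculture 3. The neutrophil sum was 2.40 CPM in coculture 4 and highest in coculture 3, at 4.08. The pan-leukocyte sum was 18.9 CPM in coculture 4 and 19.1 in coculture 6, against 7.64 to 15.0 in the other 4. Of 16 T, NK and B cell markers none passed the count filter, and their sum was 3.87 CPM in coculture 4, 0.167 to 1.56 in the other coculture libraries and 0.0904 to 0.150 in controls. The B cell genes MS4A1, CD79A and CD79B gave 49, 43 and 26 counts in coculture 4. The part of this difference in the chemokine values of coculture 4 was not tested. With coculture 4 left out, CXCL1, CXCL2, CXCL3, CXCL5 and CXCL8 all kept an edgeR adjusted p of at most 0.0109. CXCL5 passed the count filter only through coculture. Leukocyte genes were also present in the other coculture libraries, so leaving out coculture 4 does not test their part.

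Of 15 epithelial and thyroid genes that mark the TPC-1 cells, 9 were tested and 0 were called, with a median log2 fold change of 0.0249. PAX8, the thyroid lineage factor, was at 624.9 ± 107 CPM (SD, n = 6) in coculture and 508 ± 11.2 (n = 4) in controls (edgeR adjusted p = 0.404). KRT7 was at 6.06 ± 3.21 against 3.89 ± 0.957 CPM and thyroglobulin, TG, at 1.85 ± 0.811 against 0.790 ± 0.509 (edgeR adjusted p = 0.590 and 0.377). With coculture 1 and 2 alone, PAX8, KRT7 and TG were called higher (edgeR adjusted p = 0.000686, 0.00125 and 0.0161). That fit called 2784 of 16158 genes higher, so these calls are not particular to the 3 genes. CDH1, NKX2-1 and TSHR had no count in any control.

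Other genes near the cluster were fitted in the same way. Within 1 Mb on each side of the 359 kb that the 6 genes span there were 43 other features, of which 10 were tested and 0 were called, with a median log2 fold change of 0.33. Between the members lay 10 features, and 0 of these passed the count filter. The nearest to a call was EREG, epiregulin, a ligand of the EGF receptor. It was at 9.34, 4.75, 13.3 and 10.98 CPM in controls and ran from 15.8 through a median of 20.2 to 42.5 in coculture, with no overlap and its highest value again in coculture 4. Its log2 fold change was 1.28 ± 0.33 (SE, edgeR adjusted p = 0.104, and 0.00268 with DESeq2). The related genes AREG, at 1.55 ± 0.370 CPM (SD, n = 6) against 1.20 ± 0.347 (n = 4), and BTC, at 1.66 ± 0.652 against 1.54 ± 0.262, were not called, and EPGN had 42 counts in coculture and 15 in controls.

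**Figure D5:**
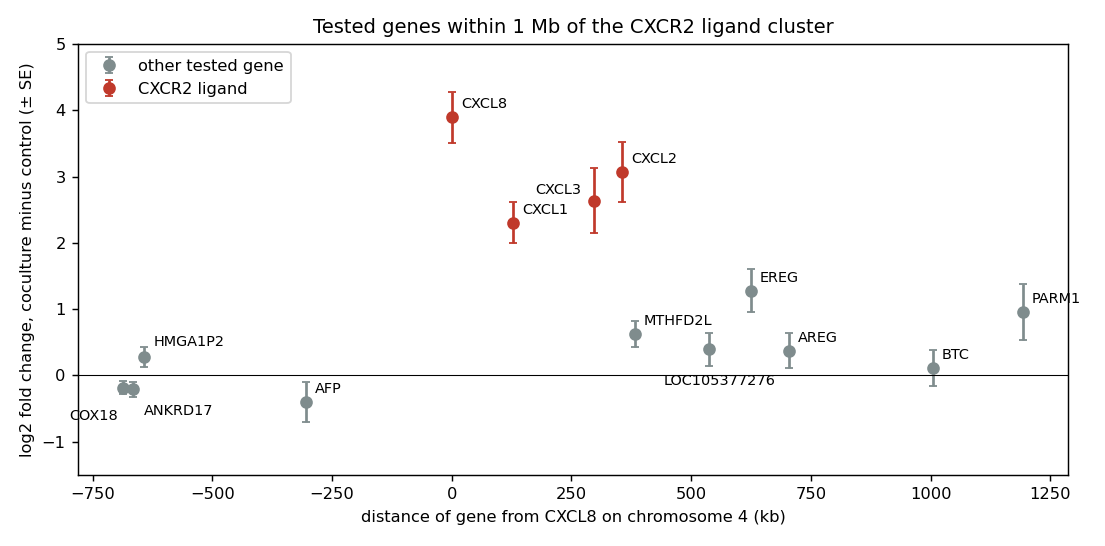
Log2 fold change, coculture minus control, with its SE (vertical axis) of the tested genes within 1 Mb of the CXCR2 ligand genes, by distance of each gene from CXCL8 on chromosome 4 (horizontal axis, kb). CXCL5, with 1 control count, and the untested CXCL6 are not drawn. CXCL1, CXCL2, CXCL3 and CXCL8 (red) lie at 2.30 or above and the 10 other genes (grey) at 1.28 or below.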

How the data were processed

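The authors deposited raw read counts per gene symbol for the 10 RNA-seq libraries. HISAT2 2.0.4, BWA and GRCh38.p10 appear in the submitters' processing notes without roles, with the counting tool, annotation and strand setting not given in the sources used here. Groups came from the treatment labels, and 0 value columns were left unused. The miRNA-seq table was not used.

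Counts were fitted in R 4.3.3 with edgeR 4.0.16 (TMM, filterByExpr by group, robust glmQLFit, glmQLFTest), with Benjamini-Hochberg adjustment over all 15629 tested genes at 0.05. SE is the size of the log2 fold change divided by the square root of F. The script was tested on simulated data. Alternatives used DESeq2 1.42.0, limma 3.58.1 (voom), other scalings and filters, a replicate block, and fewer libraries. Permutation tests used scipy 1.17.1. The closest 2 libraries of a group differed by a chi-square of 6.86 per degree of freedom, so each was counted.

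The 6 chemokines, the 11 gene lists and the motifs were chosen with earlier results of these data known. Named genes are the 6 chemokines, up to 4 of each list by adjusted p or, if untested, CPM, defining markers at 0 counts, the 3 nearest profiles of each chemokine, called neighbours, and EREG, AREG, BTC and EPGN, of which 2 genes are not reported here. Reads had no stated molecular identifiers. Promoters come from RefSeq (GRCh38.p14), where all 6 genes matched by symbol, and were aligned globally with Biopython 1.88.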

Additional observations from a re-analysis of the deposited data

Results flagged for a closer look

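A sample was singled out where its gap to the nearest other library of its group, as a share of the group's range, exceeded Dixon's 95% critical value. Of 111 groups examined, 30 had such a library, and 10 of the 30 were coculture 4. The chance rate of about 1 in 20 holds for independent, normally distributed values. Many of these genes vary together and were picked by their calls, so 30 of 111 does not measure an excess over that rate. In 9 of the 30 a single library held all counts of its group, which fixes the share at 1.0, and the chance rate does not apply to those. LGALS9 and IRF8 were picked as profiles near CXCL2 and CXCL8, so their values in coculture 4 are not separate from those of the chemokines.

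Among the chemokines, CXCL2 in coculture 4 had a gap share of 0.803 (101 CPM, next 40.5) and CXCL8 in coculture 4 had 0.657 (660 CPM, next 347). CXCL3 in control 1 lay low with 0.830 (0.919 CPM, next 1.43). CXCL5 in control 2 and CXCL6 in coculture 6 each had 1.0, as the only library of the group with any count.

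Coculture 4 was also far above the other coculture libraries for NFKBIA at 0.759 (182 CPM, next 117), NFKBIZ at 0.636 (160 CPM, next 85.4) and EREG at 0.653 (42.5 CPM, next 25.0). The same held for LGALS9 at 0.754 (1.02 CPM) and IRF8 at 0.695 (1.28 CPM), and for the B cell genes MS4A1 at 0.978 (1.16 CPM), CD79A at 0.843 (1.02 CPM) and CD79B at 0.703 (0.618 CPM). The part of one set in the other was not tested.

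Control 2 lay apart for NF-kB target genes, high for NFKBIA at 0.863 (54.8 CPM, next 33.2), TNFAIP3 at 0.869 (7.79 CPM, next 3.59) and ZC3H12A at 0.893 (8.55 CPM, next 6.87), and low for NFKBIE at 0.845 (17.2 CPM). CXCL8 in that library, at 20.9 CPM, lay within the range of the other controls, and CXCL2, at 2.97 CPM, was the lowest of the 4.

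Coculture 2 was low for the leukocyte genes CD53 at 0.953 (0.547 CPM, next 1.88) and LYZ at 0.646 (9.79 CPM, next 13.7). NKG7 was high in coculture 6 at 0.691 (0.385 CPM). The other gap shares rest on few counts: LYZ in control 4 at 0.958, ITGAM in control 1 (low) at 0.914 and CD79A in control 3 (low) at 0.864. A single library held all counts of its group, giving 1.0, for ACKR1 in coculture 1 and in control 2, CXCL12 in coculture 1, S100A9 in control 1, CD79B in control 1, NCF1C in control 4 and MYO1G in control 1.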

How the results depend on the processing

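CXCL1, CXCL2 and CXCL8 kept their direction and call under all 19 alternatives, with edgeR, DESeq2 or limma-voom adjusted p-values of up to 0.0255, 0.0483 and 0.0144. So did CXCL5 (up to 0.0235), which passed the filter only through coculture, so this says little of its stability. CXCL3 was no longer called with no filter (2.62, adjusted p 0.108, 30070 genes tested), with a replicate block (2.24, 0.0987) or by limma-voom (2.37, 0.103), and ran from 2.20 to 2.80 on leaving out 1 library. Genes higher in coculture numbered 178, but 333 with DESeq2, 95 with the replicate block, 112 to 204 on leaving out 1 library (114 without control 3, 112 without control 4) and 2784 with coculture 3 to 6 left out. Genes lower numbered 29, but 106, 10, 4 to 36 (6 without coculture 6, 5 without control 3, 4 without control 4) and 2731 under the same alternatives, and 112 with coculture 1 and 2 left out. The cause of these moves was not tested. Same-numbered libraries had correlations of deviations of 0.35, -0.08, 0.20 and 0.14, so the numbers were not taken to pair them. For CXCL2 over CXCL1, CXCL8 over CXCL1, CXCL8 over CXCL2 and CXCL8 over CXCL3, the log2 differences were 0.85, 1.60, 0.75 and 1.51 with the replicate block over 4 numbers (adjusted exact p 0.188, which 4 pairs cannot take below the threshold). They were 0.70, 1.47, 0.76 and 1.01 with coculture 1 and 2 left out (0.0686) and 0.64, 1.48, 0.84 and 1.99 with coculture 3 to 6 left out (0.133, too few libraries to pass). On leaving out 1 library they ran from 0.50 to 0.81, 1.33 to 1.69, 0.61 to 1.03 and 1.19 to 1.55. CXCL3 over CXCL1 turned to -0.51 with coculture 3 to 6 left out and was 0.46 with coculture 1 and 2 left out. With the replicate block TNFAIP3 (adjusted p 0.0806) and DUSP1 (0.126) were no longer called. Of genes that were not called, CX3CL1 turned to -0.12 under the replicate block, -0.52 by limma-voom, -0.49, -0.26, -0.02 and -0.07 without coculture 1, coculture 2, control 2 or control 4 (range on leaving out 1 library -0.49 to 0.26), and -1.39 with coculture 1 and 2 left out. FPR1 turned to -0.10 with the replicate block, -0.069, -0.01 and -0.05 without coculture 1, coculture 2 or control 4 (range -0.069 to 0.16), and -0.19 with coculture 1 and 2 left out. FUT4 turned to 0.037 with coculture 1 and 2 left out, and BTC to -0.12 without coculture 4 and -0.33 with coculture 3 to 6 left out. Not run were the longest-transcript lengths and the protein identities, since the reference tables used here hold neither. Values that DESeq2 left without an adjusted p were not counted. CXCL6, CXCL5 in controls and the marker genes under 0.0758 CPM are limited by depth.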
